A study of Caenorhabditis elegans with 4 samples.

Results

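The miRNAs cel-miR-34 and cel-miR-83 were examined in the small RNA profile of heat-stressed *Caenorhabditis elegans*. A miRNA is cut from a hairpin precursor as a duplex of a 5p and a 3p arm, and an arm that is loaded into an Argonaute protein guides it to mRNAs with matching sites. In *C. elegans*, miR-34 and miR-83 are known to buffer the migration of the distal tip cells, which shape the gonad, against changes in temperature. miR-34 belongs to a family conserved from worms to mammals, where it responds to p53, and the 3p arm of miR-83 shares its seed, the stretch near the 5′ end that pairs with targets, with mammalian miR-29. Members were chosen by name alone, as every listed arm of either hairpin. This gave 4 arms of 205 listed mature miRNAs, and 2 hairpins of 132.

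The libraries came from whole wild-type N2 animals, the Bristol laboratory strain, at the L4 stage, the last larval stage, fed on OP50 bacteria. Heat shocked (HS) animals were grown at 20°C and moved to 35°C, and control (CTRL) animals stayed at 20°C, with 2 libraries in each group. The heat shock lasted 4 h by the sample characteristics and 6 h by their treatment protocol, and the study's methods state the second time for these libraries. Whole animals were used, so no tissue can be assigned to any level below.

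Each level below is the authors' mean normalized count, the count of an arm after division by library size factors, averaged over all 4 libraries. HS and CTRL libraries are pooled in this mean. Values of single libraries were not analysed here, so no level has an error and no difference between arms could be tested. HS was not compared with CTRL here, and the authors' own comparison was not used. The study reports that miR-34 was downregulated in HS, without naming the arm in its text. The pooled levels of miR-34 therefore need not be typical of either group. Depth per library is unknown. Levels of different miRNAs also carry differences in ligation and amplification between sequences. Over all 205 miRNAs, levels ran from 51.5 to 1136489 with a median of 1512.

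Both miR-34 arms and miR-83-3p were of moderate abundance and close to each other, and miR-83-5p was near the bottom of the list. miR-34-3p had a mean normalized count of 5326, and 66 listed miRNAs were more abundant. miR-34-5p, the arm that carries the conserved miR-34 seed, had 4278 and was 71st. miR-83-3p, the arm with the miR-29 seed, had 4275 and was 72nd, directly after it. These 3 arms were 3.52-fold, 2.83-fold and 2.83-fold over the median of all listed miRNAs. miR-83-5p had a mean normalized count of only 64.0, 23.6-fold under that median, and 2 listed miRNAs were lower.

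**Figure D1:**
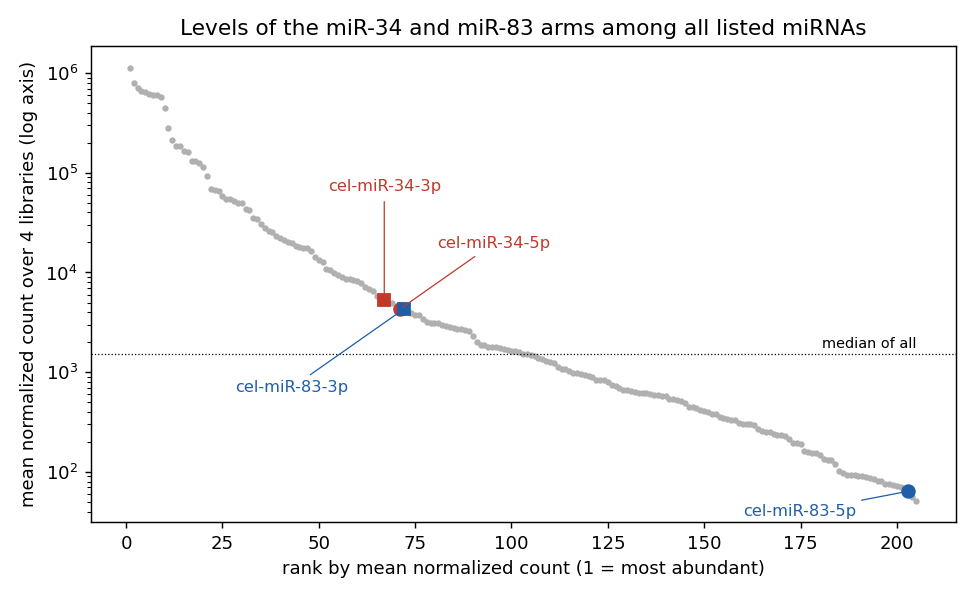
Mean normalized count over the 4 libraries (log axis) of each of the 205 listed miRNAs against its rank, with red for miR-34, blue for miR-83, circles for 5p arms and squares for 3p arms. Both miR-34 arms and miR-83-3p lie between 4275 and 5326, above the dotted median of 1512, and miR-83-5p lies at rank 203 with 64.0.

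The levels allow a limit for single groups and libraries, because a count is never negative. With 2 of the 4 libraries in each group, the mean of one group cannot exceed 128 normalized counts for miR-83-5p, and no single library can exceed 256. Even this upper limit is 5.91-fold under the pooled median of the listed miRNAs, so miR-83-5p was under that value in every HS and CTRL library. The median within a single library is not known, and the limit does not compare HS with CTRL. The same limits are wide for the abundant arms. A group mean could reach 10653 for miR-34-3p, 8555 for miR-34-5p and 8550 for miR-83-3p, so the pooled levels do not fix the order of these 3 arms within HS or within CTRL.

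The neighbours in the order of levels were close. miR-1829c, directly above miR-34-3p, had a mean normalized count 1.72% higher, and miR-40-3p, directly below, was 1.07-fold lower at 4997. miR-39-3p, directly above miR-34-5p, had 4359. Below miR-83-3p came miR-76-3p with 4203. miR-34-5p and miR-83-3p themselves differed by 2.44 normalized counts, or 0.0570%. At the low end, miR-83-5p stood between miR-4813-5p with 64.0 and miR-5547-5p with 56.5. With no spread between libraries at hand, none of these neighbours can be placed in order with any confidence. miR-39 and miR-40 are members of the miR-35 family, which is needed in the embryo and germline of *C. elegans*.

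The hairpins differed most in how their arms were divided. In miR-34 the 3p arm held 55.5% of the summed mean normalized count of the hairpin and the 5p arm 44.5%, so the 3p arm was 1.25-fold over the 5p arm. In miR-83 the 3p arm held 98.5% and the 5p arm 1.47%, a ratio of 66.8. For both hairpins the 3p arm was thus the more abundant in the pooled mean, which was also the case for 44 of the 73 hairpins listed with both arms. For miR-83 this is the arm with the conserved seed, whereas for miR-34 it is the partner of that arm.

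**Figure D2:**
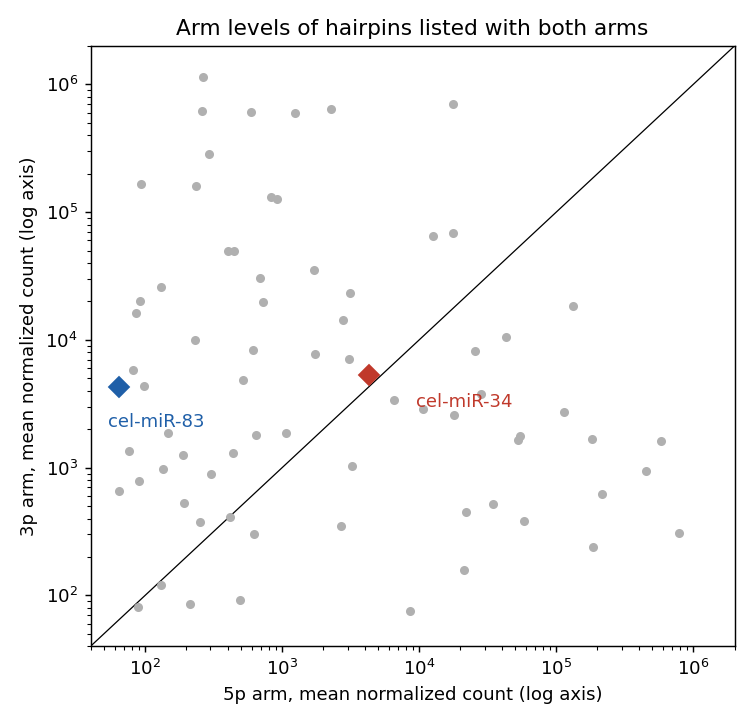
Mean normalized count of the 3p arm against that of the 5p arm (both log axes) for the 73 hairpins listed with both arms, in which the line marks equal levels. cel-miR-34 (red, 4278 for 5p and 5326 for 3p) lies beside the line, and cel-miR-83 (blue, 64.0 for 5p and 4275 for 3p) lies far above it at the left edge of the points.

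Set among all 73 hairpins listed with both arms, miR-34 and miR-83 lay on either side of the median ratio of 20.8. The other 59 of 132 hairpins were listed with 1 arm or no arm suffix and have no ratio. The median and the order therefore hold only among these 73. Ratios ran from 1.01 to 4263. miR-34 had the 4th most equal arms. The hairpins beside it were miR-800 and miR-50, with ratios of 1.08 each, and miR-790 and miR-74, with ratios of 1.49 and 1.73. Arms under 2-fold apart were found in 7 hairpins, and both arms reached 1000 normalized counts in 3 of these, namely miR-34, miR-74 and miR-243, the last of which was named after its values had been seen. In the pooled mean, miR-34 thus had near-equal arms at a level where both were well represented. The arms of miR-800 were at 88.4 and 81.8 and those of miR-50 at 131 and 121. These ratios are of pooled means and need not hold within HS or within CTRL. miR-83 came 48th from the most equal, between lin-4 with a ratio of 66.0 and miR-37 with 71.7, and within 2 places of miR-788 with 48.5 and miR-48 with 110.

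**Figure D3:**
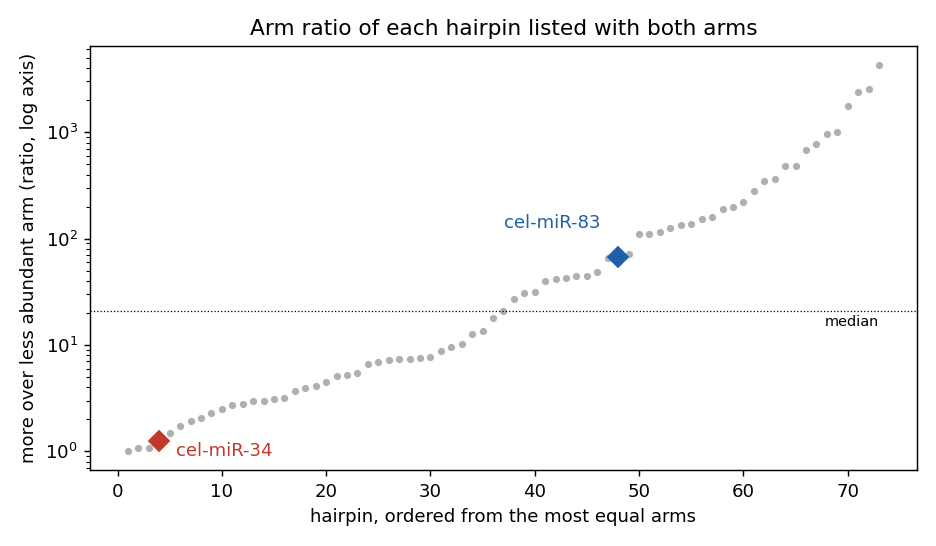
Ratio of the more to the less abundant arm (log axis) for each of the 73 hairpins listed with both arms, ordered from the most equal, with the median of 20.8 dotted. cel-miR-34 (red) is 4th with 1.25 and cel-miR-83 (blue) is 48th with 66.8.

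The hairpins differed far more in their less abundant arms. Taken by their more abundant arms, miR-34 and miR-83 were 50th and 53rd of the 73 hairpins, both under the median of 20314 normalized counts for such arms. Among the 73 less abundant arms, whose median was 453, miR-34-5p was the 7th highest and miR-83-5p the lowest. Arms that are not listed, whose levels are unknown, are left out of this order, and no listed level was under 51.5. Between the 5p arms the difference was 66.8-fold, and between the 3p arms it was 1.25-fold. Because miR-34-5p and miR-83-3p had almost the same level, these differences restate the arm ratios of miR-83 and miR-34 and are not a separate result. miR-34-5p ranked 25th among the 73 5p arms and miR-83-5p 73rd, whereas miR-34-3p and miR-83-3p ranked 32nd and 35th among the 3p arms. Summed over both arms, miR-34 had 9604 normalized counts and was 52nd of 132 hairpins, and miR-83 had 4339 and was 65th, a 2.21-fold difference. All 4 arms together held 0.141% of the summed mean normalized counts of the table.

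Neither hairpin is part of a miRNA cluster. On the WBcel235 assembly, mir-34 lies on chromosome X at 2969752 to 2969848 on the minus strand, outside other annotated genes. The nearest protein-coding genes are gbb-1, which encodes a GABA-B receptor subunit, 1559 bp away on the side of lower coordinates, and aakg-3, a gamma subunit of AMP-activated kinase, 6599 bp away on the other side. Both are on the opposite strand. The nearest other annotated hairpin, mir-359, is 34442 bp away. mir-83 lies on chromosome IV at 7841631 to 7841728 on the plus strand, with C06A6.7 at 3104 bp and C06A6.2 at 4893 bp as its nearest protein-coding genes, and the nearest other hairpin, mir-1820, is 74063 bp away. Neither hairpin had a hairpin of another listed miRNA within 10000 bp.

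The annotated hairpins are of similar length, 97 bp for mir-34 and 98 bp for mir-83, where 97 is also the median of the 127 listed hairpins matched by name. The arms of miR-34 are both 22 nt long, at 2969812 to 2969833 for 5p and 2969775 to 2969796 for 3p, with 15 bases between them. In miR-83 the 5p arm is 23 nt (7841647 to 7841669) and the 3p arm 22 nt (7841691 to 7841712), with 21 bases between them. A further annotated non-coding RNA, C06A6.9 (7841504 to 7841651), overlaps the first 21 bases of the mir-83 hairpin on the same strand, and 5 of these lie in miR-83-5p. The part of this overlap in the level of miR-83-5p was not tested.

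**Figure D4:**
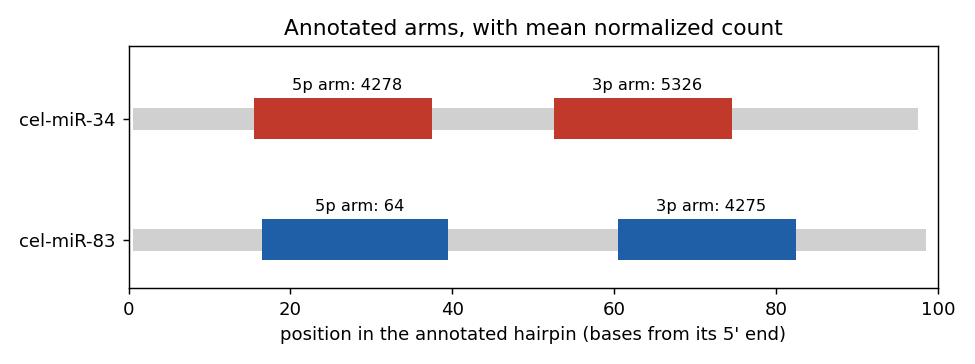
Annotated hairpins of cel-miR-34 (97 bp) and cel-miR-83 (98 bp) drawn to scale from their 5′ ends (bases), with the arms coloured and labelled with their mean normalized counts. The arms lie 15 bases apart in miR-34 and 21 bases apart in miR-83, and the 5p arm of miR-83, at 64.0, is the low one of the 4.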

How the data were processed

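Small RNA libraries were made by the authors with a TruSeq kit from Trizol-extracted RNA of 2 HS and 2 CTRL cultures described as independent replicates. Reads were mapped by the authors to *C. elegans* miRNAs and analysed in DESeq2, whose version, like the aligner, the miRNA reference and the treatment of multiply mapping reads, is not given in the sources used here. The deposited table holds a pooled signal per miRNA, the count after division by size factors, averaged over all 4 libraries. Its other columns hold the authors' own fold changes and adjusted p-values for HS over CTRL. These were not used.

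Ranks, shares, arm ratios and upper limits were computed in Python 3.11.15 with pandas 2.3.3. The code for ranks and arm ratios recovered the built-in values of simulated levels without noise. That checks the arithmetic only and says nothing about how reliable the ranks and ratios are here. Shares are of the sum over all 205 miRNAs. Groups came from the sample titles. Positions come from Ensembl release 115 on WBcel235, counted from 1, matched by hairpin name. The build behind the authors' miRNA reference is not given in the sources used here. Named miRNAs were the member arms, the miRNAs directly above and below each in level, and the 2 hairpins on each side of each member in arm ratio. Sharing of seeds between listed miRNAs and predicted folding were planned, and were not run because mature and hairpin sequences were not analysed here. The members, lists and alternatives were chosen with earlier results of these data known.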

Additional observations from a re-analysis of the deposited data

How the results depend on the processing

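No paired analysis was possible because all libraries share 1 pooled value for each miRNA, and for the same reason no replicate could be left out and no count model was fitted. Of 15 values recomputed under other settings, 11 stayed within 1.5 times of the reported value. This count describes the settings only and does not measure variation between libraries. Some of the values could not change, because a minimum of 100 normalized counts cannot alter the rank of an arm above it or the ratio of miR-34. Those 11 were ranks, arm ratios and their order, with the ratio of miR-83 at 57.9 when a pseudocount of 10 was added to both arms and that of miR-34 at 1.24. The other 4 were shares. Leaving the 10 most abundant miRNAs out of the sum changed the share of miR-34-3p to 0.172% (0.0539% of the full sum), that of miR-34-5p to 0.139% (0.0432%), that of miR-83-3p to 0.138% (0.0432%) and that of miR-83-5p to 0.00207% (0.000647%), since the sum itself was smaller. With a minimum of 100 normalized counts miR-83-5p, and with it the arm ratio of miR-83, has no value, and with 1 miRNA for each hairpin both 5p arms drop out. Seed sharing and folding alternatives were not run. Depth is unknown, so no counting error can be given for any of the 4 arms.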
